A study of Mus musculus with 6 samples.

Results

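The iron transport and storage genes of the mouse left ventricle were followed across its nuclei. They were 9 of the 33696 genes in the matrices, and all 9 were found there by symbol. They were Tfrc (ENSMUSG00000022797), Steap3 (ENSMUSG00000026389), Slc11a2 (ENSMUSG00000023030), Slc11a1 (ENSMUSG00000026177), Fth1 (ENSMUSG00000024661), Ftl1 (ENSMUSG00000050708), Slc40a1 (ENSMUSG00000025993), Hmox1 (ENSMUSG00000005413) and Ireb2 (ENSMUSG00000032293). Single-nucleus RNA was counted in 6 libraries of male mice in 3 groups of 2. WT-CD hearts were wild type on a control diet, R403Q-CD hearts carried the heterozygous Myh6 mutation known as R403Q, a mouse model of hypertrophic cardiomyopathy, on that diet, and R403Q-EMPA hearts carried it on the diet with empagliflozin. Empagliflozin (EMPA) inhibits the sodium-glucose cotransporter SGLT2 and was mixed into the food (0.15 mg per g, equivalent to some 15 mg/kg). The mutation is carried in the germline and the wild-type mice were littermates. Feeding started when the mice were 9 to 10 weeks old and these hearts were taken at 12 weeks, which leaves 2 to 3 weeks of diet, although the labels also state a longer feeding period. The labels do not say whether the 2 libraries of a group came from different animals, so p-values measure only the spread between these libraries. Replicate numbers only name the libraries of a group, in accession order, and pair none across groups.

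Cells take up iron as transferrin bound to the transferrin receptor, reduce it in the endosome and pass it to the cytosol through a divalent metal transporter. Iron that is not used is stored inside ferritin, a shell of heavy and light chains, or leaves the cell through ferroportin. The iron-regulatory proteins bind stem-loops called iron-responsive elements when iron is scarce: in the 5′ UTR of ferritin and ferroportin mRNAs this blocks translation, and in the 3′ UTR of transferrin receptor mRNA it stabilises the message. Mature cardiomyocytes use iron for haem proteins and the iron-sulfur clusters of the respiratory chain, and macrophages recover it from engulfed red cells.

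The stem-loops are shown first because several of these genes carry one and the iron-regulatory proteins bind there. A search of GENCODE M21 mouse transcripts (GRCm38) looked, on the transcribed strand, for a C, 5 bases, the 6-base loop CAGTGN and 5 bases that pair with the 5 before the loop, G-T pairs allowed. It found them in 4 of the 9 members, against 0.722% of 21877 protein-coding genes. Each is printed as DNA with the loop in capitals and 5 further bases on each side of the stem.
Fth1, 5′ UTR of Fth1-201, bases 88 to 114: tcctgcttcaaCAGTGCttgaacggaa
Ftl1, 5′ UTR of Ftl1-201, bases 79 to 105: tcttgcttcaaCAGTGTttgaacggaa
Slc40a1, 5′ UTR of Slc40a1-201, bases 91 to 117: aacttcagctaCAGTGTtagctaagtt
Tfrc, 3′ UTR of Tfrc-201, bases 884 to 910: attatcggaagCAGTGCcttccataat
Tfrc, 3′ UTR, bases 1263 to 1289: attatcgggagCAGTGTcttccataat
Tfrc, 3′ UTR, bases 1328 to 1354: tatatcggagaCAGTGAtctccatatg
Tfrc, 3′ UTR, bases 1375 to 1401: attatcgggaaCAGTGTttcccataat

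Fth1, Ftl1 and Slc40a1 each held 1 such element in the 5′ UTR, as did 0.137% of protein-coding genes, and Tfrc held 4 in its 3′ UTR, where 0.585% of genes held any. A match is a description of letters and not a measured binding site. Steap3, Slc11a1, Slc11a2, Hmox1 and Ireb2 held no match to these letters. The search would miss an element with an unpaired base in that stem, so no match does not mean no element. UMI counts reflect RNA level only, so a block of translation by these elements would not appear in the values that follow.

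The matrices held 69249 barcodes, of which 46005 nuclei were kept, 6409 to 9514 per library with 23624326 to 37411887 UMIs. Cell types are not labelled, so clusters were named by fixed markers as "-like" classes. The 11 classes included fibroblast-like, cardiomyocyte-like, endothelial-like, endocardial-like, pericyte-like and myeloid-like nuclei, the 6 in which groups were tested, and 10 had at least 20 nuclei in every library. Barcode sequences were shared between libraries for 228 of 45777 distinct sequences among the nuclei kept. Levels are given as CPM, the UMIs of a gene scaled to the same total of UMIs for every class and library, with intervals, where given, that cover counting error only. Because a class was made by clustering the same nuclei, its levels are a description without a test, although none of the 9 members was among the 2000 genes used for clustering.

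**Figure D1:**
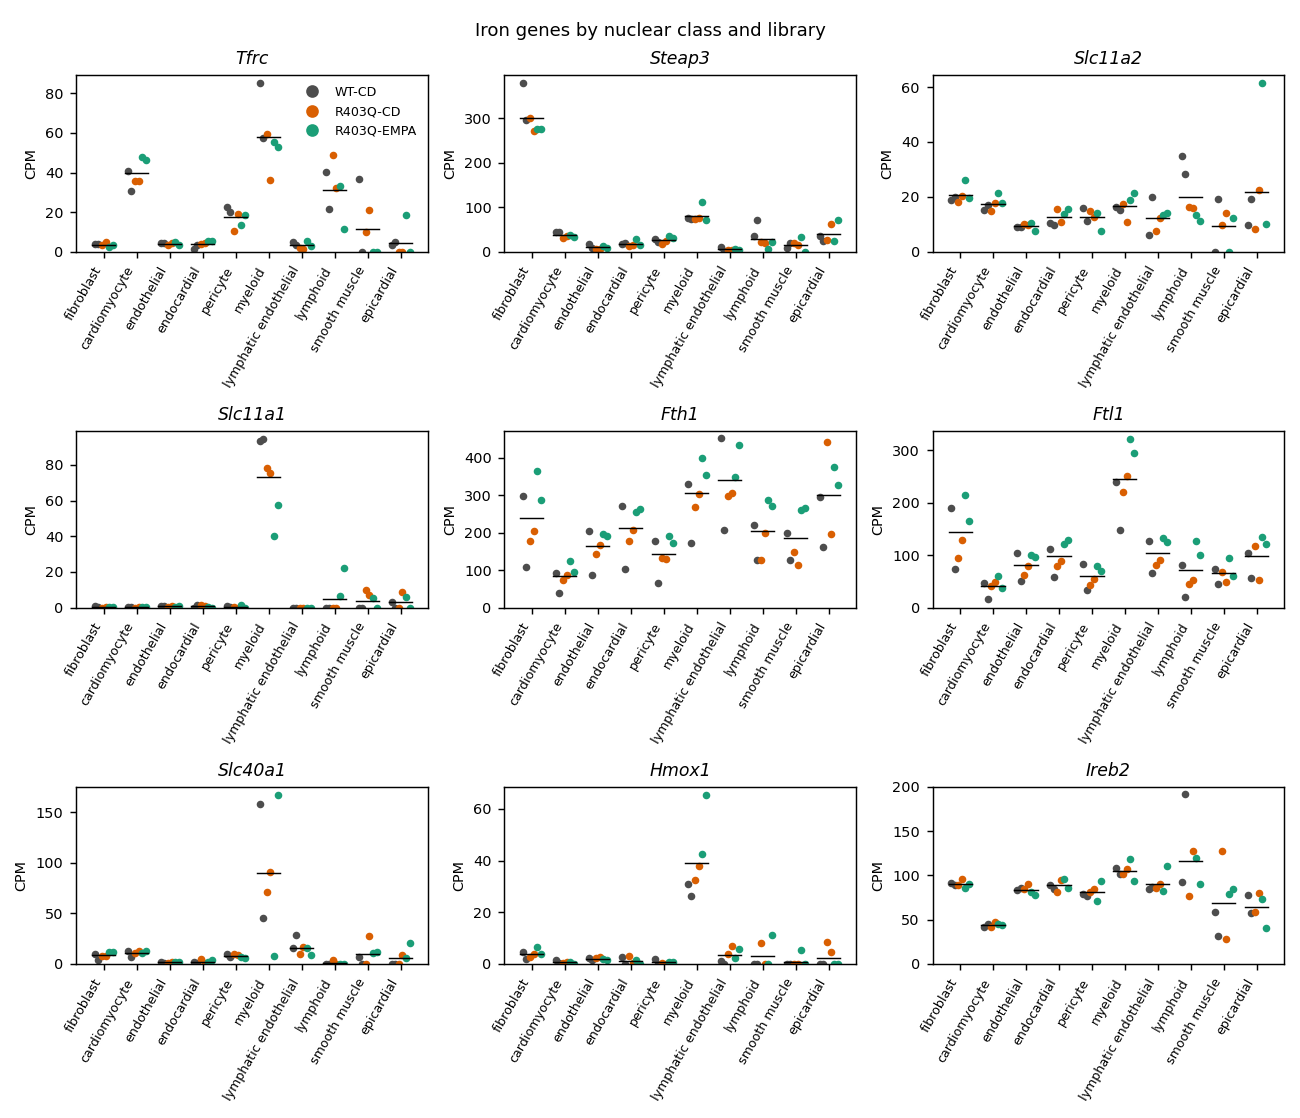
CPM of each iron gene (vertical axes, linear and each on its own scale) in 10 classes of nuclei, with 1 point per library coloured by group and a line at the mean of the 6 libraries. Slc11a1 and Hmox1 stand out in myeloid-like nuclei and Steap3 in fibroblast-like nuclei, while the points of Ireb2 lie close together within each of the 6 tested classes.

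Of the uptake genes, Tfrc, the transferrin receptor, was highest in myeloid-like nuclei (57.9 ± 15.8 CPM, SD over 6 libraries), then cardiomyocyte-like nuclei (39.5 ± 6.83) and lymphoid-like nuclei (31.2 ± 13.4). The ranges of these neighbours overlapped, but within each library the myeloid-like level was above the cardiomyocyte-like one, by 1.02 to 2.08 times. Pericyte-like nuclei followed at 17.3 ± 4.49 CPM. Endothelial-like (4.04 ± 0.584), endocardial-like (3.93 ± 1.43) and fibroblast-like nuclei (3.55 ± 0.863) were low and did not differ beyond their spread. Cardiomyocyte-like nuclei held 6.87 to 14.8 times the Tfrc level of endothelial-like nuclei of the same library.

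Steap3, the endosomal ferrireductase that reduces iron so that it can enter the cytosol, had another distribution. Fibroblast-like nuclei held 300.3 ± 40.6 CPM, and their lowest library (272 CPM) lay above the highest of any other class. Myeloid-like nuclei came next at 79.4 ± 15.6 CPM, and within a library the fibroblast-like level was 2.49 to 5.09 times the myeloid-like one. Cardiomyocyte-like nuclei held 37.3 ± 5.24 CPM, endothelial-like nuclei 9.46 ± 4.28 and lymphatic endothelial-like nuclei 4.58 ± 2.73. The 3 fibroblast-like clusters each held it, at 299 ± 46.3, 285 ± 33.1 and 370 ± 57.7 CPM. With every nucleus thinned to 500 UMIs, 12.2 to 16.7% of fibroblast-like nuclei held a Steap3 UMI (46.3 to 60.04% unthinned, median depth 2528.5 to 4564 UMIs). In endothelial-like nuclei the share was 0.260 to 0.829% (1.73 to 3.90% unthinned, median depth 2116 to 3426).

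Slc11a2, the divalent metal transporter DMT1, had class means that ran from 9.20 CPM in smooth muscle-like to 21.9 CPM in epicardial-like nuclei, and neighbours in that order overlapped throughout. Some classes further apart did not, as fibroblast-like nuclei held 18.0 to 26.2 CPM and endothelial-like nuclei 7.66 to 10.4 CPM. Slc11a1, the related transporter NRAMP1 of the phagosome membrane, was almost limited to myeloid-like nuclei. These held 73.2 ± 21.0 CPM, 74.3 to 132 times the endothelial-like level of the same library. The other 5 tested classes held at most 1.57 CPM in any library, and its share of thinned endothelial-like nuclei with a UMI (0.0314 to 0.0555%) is read as background beside 2.14 to 5.30% of myeloid-like nuclei.

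The storage genes were present everywhere. Fth1, the ferritin heavy chain with the ferroxidase site, ran from 341 ± 91.5 CPM in lymphatic endothelial-like and 304 ± 77.6 in myeloid-like nuclei to 85.2 ± 28.3 in cardiomyocyte-like nuclei, the lowest class. Ftl1, the light chain, was highest in myeloid-like nuclei (246 ± 61.0 CPM) and again lowest in cardiomyocyte-like nuclei (42.2 ± 14.7). Neighbours overlapped for both genes, but myeloid-like nuclei held more Ftl1 than fibroblast-like nuclei in 6 of 6 libraries, by 1.25 to 2.32 times. The smaller of the 2 cardiomyocyte-like clusters held more Fth1 (153 ± 22.8 CPM, 1697 nuclei) than the larger one (77.8 ± 26.4 CPM, 5281 nuclei). Ftl1-ps1, a near copy in the matrices, was listed at 0 to 2.99 CPM in the tested classes, and how the counting divided reads between copies is not given in the sources used here.

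Slc40a1, which encodes ferroportin, the iron exporter, averaged 90.3 CPM in myeloid-like nuclei with an SD of 62.8 over the 6 libraries. Lymphatic endothelial-like (15.6 ± 7.09), cardiomyocyte-like (11.1 ± 2.32), fibroblast-like (8.98 ± 2.94) and pericyte-like nuclei (7.96 ± 1.46) overlapped one another, and endothelial-like nuclei held 1.52 ± 0.308 CPM. Hmox1, the inducible haem oxygenase that frees iron from haem, was highest in myeloid-like nuclei at 39.2 ± 13.9 CPM, and its lowest library there (26.5 CPM) was above every library of the other classes. Fibroblast-like nuclei held 3.90 ± 1.55 CPM, and within a library the myeloid-like level was 6.66 to 16.2 times higher.

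Ireb2, which encodes iron-regulatory protein 2, varied less between the libraries of a class than the ferritin genes did. In 5 of the tested classes its mean lay between 81.1 and 105 CPM, and in cardiomyocyte-like nuclei it was 44.4 ± 2.22 CPM. Fibroblast-like nuclei held 1.88 to 2.17 times the cardiomyocyte-like level in the 6 libraries. Its coefficient of variation across libraries was 3.72 to 9.67% in the tested classes, against 25.5 to 38.8% for Fth1 and 24.8 to 37.8% for Ftl1.

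One cluster of 31 nuclei met the marker rule for no class and was led by the haemoglobin genes Hbb-bt, Hba-a1, Hba-a2 and Hbb-bs and by Alas2, the erythroid enzyme that starts haem synthesis. It held 0 to 13 nuclei per library, so only its pooled levels are given. Ftl1 was at 1722 CPM there (205 UMIs, 95% Poisson interval 1495 to 1975) and Fth1 at 672 (80 UMIs, 533 to 837). Tfrc and Ireb2 had 1 UMI each among 119024, and Slc40a1, Slc11a1 and Hmox1 had none, which allows up to 25.2 CPM by the limit of 3 UMIs.

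The genes whose class pattern was most like each member were found by Pearson correlation of mean log2(CPM + 1) over the 10 classes, among 13610 genes. They are a description, since classes share libraries. For Slc11a1 they were Naip6 (r = 0.98) and F630028O10Rik (0.98), for Tfrc Fh1 (0.98), the fumarate hydratase of the citric acid cycle, and Dennd4b (0.90), and for Steap3 Cyp27a1 (0.92), the sterol 27-hydroxylase, and Tmem178b (0.92). For Fth1 they were Edem2 (0.94) and Rab5b (0.94), for Ftl1 Vps41 (0.96) and Ulk2 (0.95), and for Ireb2 Tmf1 (0.98) and Uggt1 (0.98). For Slc40a1 the second was Mfsd12 (0.91). For Hmox1 they were Pepd (0.97) and Rragc (0.96), and for Slc11a2 Ibtk (0.96) and Zfp709 (0.93).

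The design then asked whether the mutation, and EMPA in mutant hearts, went with a change of these genes within a class. Counts were summed per class and library and tested with edgeR's quasi-likelihood test. Each pair of comparisons shares the libraries of 1 group. No member passed an adjusted p of 0.05 (Benjamini-Hochberg over all genes of a class) in any of the 135 pairs of member and class tested in 3 comparisons. At an unadjusted p under 0.05 there were 2 of 45 pairs for R403Q-CD against WT-CD, 4 of 45 for R403Q-EMPA against R403Q-CD and 10 of 45 for R403Q-EMPA against WT-CD, and DESeq2 called 0 in each. Over all genes the share at that unadjusted level was 4.15%, 10.6% and 14.1%.

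That count of 0 is read against how many genes were called at all. In fibroblast-like nuclei, with 8 members tested, 0% of genes were called for R403Q-CD against WT-CD, 0.159% for R403Q-EMPA against R403Q-CD and 1.13% for R403Q-EMPA against WT-CD. In the same order the shares were 0.0973%, 0.257% and 4.09% in cardiomyocyte-like nuclei (7 members tested) and 0%, 0.243% and 0.815% in endothelial-like nuclei (8 members). They were 0%, 0.639% and 1.91% in endocardial-like nuclei (6 members), 0%, 0.519% and 1.57% in pericyte-like nuclei (7 members) and 0.00925%, 0.0925% and 0.518% in myeloid-like nuclei, where all 9 members were tested. Slc11a1 passed the filter on low counts in myeloid-like nuclei only. Hmox1 did not pass in cardiomyocyte-like, endocardial-like or pericyte-like nuclei, nor Slc40a1 in endocardial-like nuclei.

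**Figure D2:**
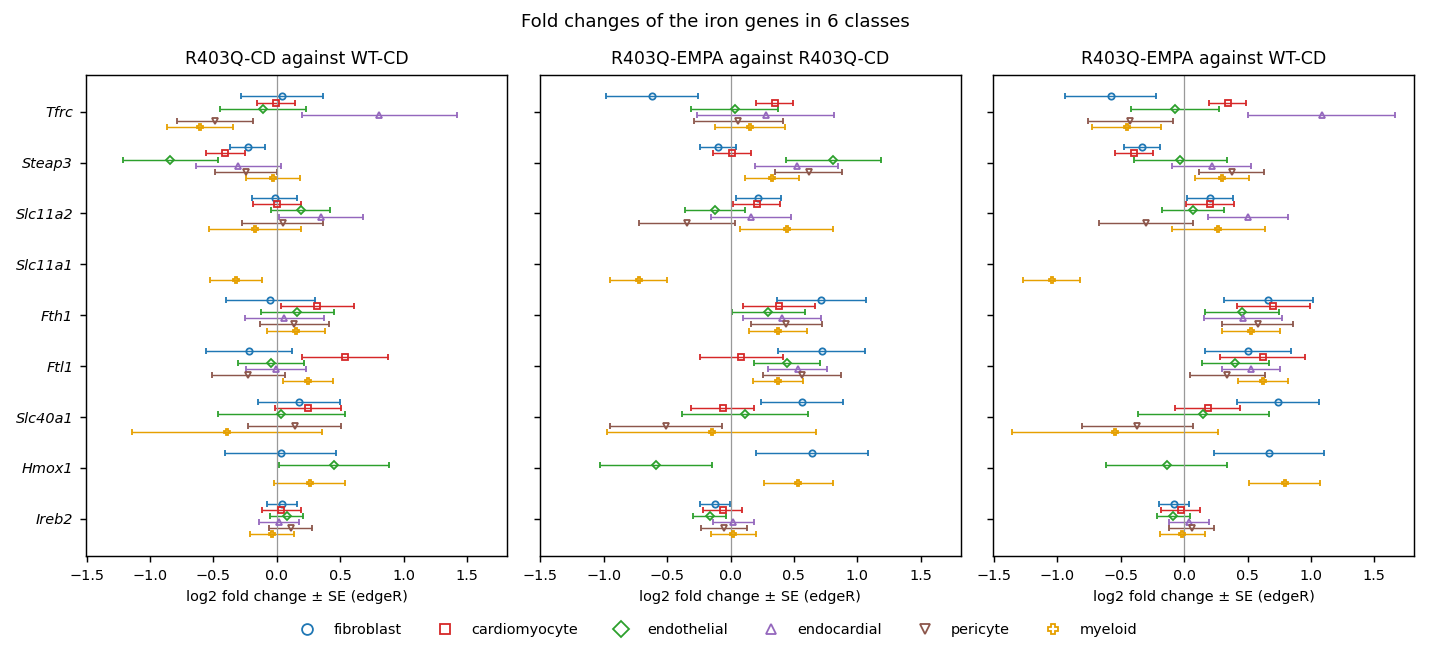
Log2 fold change with its standard error (edgeR, horizontal axes) of each iron gene that passed the filter, with 1 marker per class and 1 panel per comparison. Values of Ireb2 lie close to 0 in every class, Fth1 and Ftl1 lie above 0 in R403Q-EMPA against both other groups, and Slc11a1 in myeloid-like nuclei lies lowest at −1.05 against WT-CD.

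The member nearest the threshold was Slc11a1 in myeloid-like nuclei. Its levels were 93.5 and 94.3 CPM (WT-CD), 78.1 and 75.5 CPM (R403Q-CD) and 40.3 and 57.7 CPM (R403Q-EMPA) hearts. Both R403Q-EMPA libraries lay below both R403Q-CD libraries, and those below both WT-CD libraries. The log2 fold change was −1.05 (SE 0.225, adjusted p 0.0784, edgeR) for R403Q-EMPA against WT-CD, −0.73 (SE 0.227, adjusted p 0.434) against R403Q-CD, and −0.32 (SE 0.203, adjusted p 0.994) for R403Q-CD against WT-CD. Without R403Q-EMPA replicate 2 the first of these had an adjusted p of 0.0407, without replicate 1 it was −0.72 with an adjusted p of 0.444, and without a filter on low counts 0.00411. The counts behind it were 38 to 149 UMIs per library, and 11.9% and 13.2% of R403Q-EMPA nuclei held a UMI against 21.8% and 24.1% in R403Q-CD and 20.5% and 26.3% in WT-CD. By this share R403Q-CD lay between the 2 WT-CD libraries.

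Other genes of the myeloid-like class had a like order of libraries. The 8 lymphoid markers summed to 1440 and 1510 CPM (WT-CD), 1215 and 1151 CPM (R403Q-CD) and 488 and 1068 CPM (R403Q-EMPA) myeloid-like nuclei. Almost all of that was Bank1, with 2 to 5 of the 8 at 0 in a library and Cd3e at 0 or 1 UMI. Of genes chosen after their values were seen, Timd4, a receptor of resident macrophages, was at 147 and 131 CPM (WT-CD), 93.4 and 91.5 CPM (R403Q-CD) and 26.4 and 53.1 CPM (R403Q-EMPA). The 8 myeloid markers summed to 13084 CPM in R403Q-EMPA replicate 1 and to 14157 to 16843 in the other 5 libraries. Among them Csf1r, the macrophage growth factor receptor, was at 666 to 800 CPM, and Mrc1, the mannose receptor, was lowest in R403Q-EMPA replicate 1 (2351 against 2810 to 3633). C1qa, a chain of complement C1q, was at 581 and 296 CPM (WT-CD), 382 and 446 CPM (R403Q-CD) and 631 and 619 CPM (R403Q-EMPA), and Lyz2, a lysozyme, was highest in R403Q-EMPA replicate 1 (951 against 365 to 656). The part that the mix of cells within the class has in the Slc11a1 values was not tested.

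**Figure D3:**
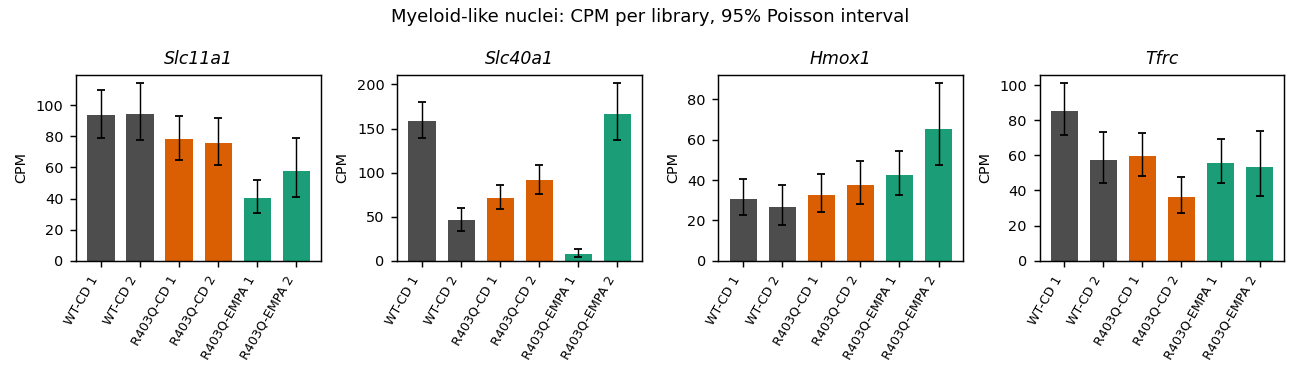
CPM of 4 iron genes in myeloid-like nuclei, with 1 bar per library coloured by group and 95% Poisson intervals that cover counting error only. The 2 R403Q-EMPA libraries are lowest for Slc11a1 and highest for Hmox1, and they lie at 7.64 and 167 CPM for Slc40a1.

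Ferroportin, Slc40a1, differed more between the 2 R403Q-EMPA libraries than between groups. In myeloid-like nuclei it was at 159 and 45.9 CPM (WT-CD), 71.0 and 91.5 CPM (R403Q-CD) and 7.64 and 167 CPM (R403Q-EMPA). Replicate 1 of R403Q-EMPA held 11 UMIs (95% Poisson interval 3.81 to 13.7 CPM) and replicate 2 held 110, which is 21.8 times more per UMI (95% interval from counting error 11.7 to 45.0). A UMI of Slc40a1 was found in 8 of 419 nuclei of replicate 1, or 1.91% (exact binomial interval 0.828 to 3.73%), and in 62 of 265 of replicate 2, or 23.4% (18.4 to 29.0%).

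Ranked after its values were seen, this was the lowest ratio of replicate 1 to replicate 2 among 7279 genes with at least 150 UMIs. The same libraries held 12.2 and 11.8 CPM in fibroblast-like and 10.4 and 13.0 CPM in cardiomyocyte-like nuclei, and the remaining classes rested on at most 14 UMIs per library. Over all nuclei they were at 7.78 and 14.6 CPM. In the same myeloid-like nuclei Ccr2, the receptor of recruited monocytes and also chosen after its values were seen, was at 129 CPM in replicate 1 and 16.7 in replicate 2, against 36.3 to 50.6 in the other 4 libraries. Cd163, the haemoglobin scavenger receptor, was at 763 and 1086 CPM. The log2 fold changes of Slc40a1 there were −0.54 (SE 0.812) against WT-CD and −0.15 (SE 0.826) against R403Q-CD. Without R403Q-EMPA replicate 1 they became 0.65 and 1.05, without replicate 2 −3.84 and −3.44, and none had an adjusted p under 0.05.

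In fibroblast-like nuclei Slc40a1 was at 9.78 and 4.32 CPM (WT-CD), 7.87 and 7.89 CPM (R403Q-CD) and 12.2 and 11.8 CPM (R403Q-EMPA). Both R403Q-EMPA libraries were above the other 4, and the log2 fold change against WT-CD was 0.74 (SE 0.322, adjusted p 0.345, edgeR). Without WT-CD replicate 1 it was 1.38 (adjusted p 0.0304), and without WT-CD replicate 2 it was 0.31, so it rested on which WT-CD library was kept.

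Hmox1 in myeloid-like nuclei had the opposite order to Slc11a1, with 30.7 and 26.5 CPM (WT-CD), 32.6 and 37.8 CPM (R403Q-CD) and 42.4 and 65.2 CPM (R403Q-EMPA). The groups did not overlap, and the log2 fold change was 0.79 (SE 0.280, adjusted p 0.323, edgeR) for R403Q-EMPA against WT-CD and 0.54 (SE 0.271, adjusted p 0.724) against R403Q-CD. Over the alternatives the first of these ran from 0.48 to 1.16. Of the myeloid markers, only C1qa was also highest in both R403Q-EMPA libraries of this class, and only Mrc1 was lowest in both. Mrc1 was at 2351 and 2810 CPM there, against 2880 to 3633 in the WT-CD and R403Q-CD libraries. The summed lymphoid markers, almost all of them Bank1, were lowest in both R403Q-EMPA libraries too. The part of these markers in the Hmox1 values was not tested. Tfrc in these nuclei was at 85.3 and 57.3, 59.5 and 36.3, and 55.6 and 53.1 CPM in the same order of groups. Its R403Q-CD and WT-CD libraries overlapped, and the log2 fold change between them was −0.61 (SE 0.261, adjusted p 0.994, edgeR), and −1.01 to −0.30 over the alternatives.

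The ferritin genes shared their lowest library in every tested class. In fibroblast-like nuclei Fth1 was at 297 and 108 CPM (WT-CD), 178 and 206 CPM (R403Q-CD) and 364 and 287 CPM (R403Q-EMPA). Ftl1 there was at 191 and 74.8, 95.3 and 130, and 215 and 166 CPM. WT-CD replicate 2 was the lowest library for both genes in all 6 tested classes, at 0.447 to 0.571 of the class mean for Fth1 and 0.398 to 0.608 for Ftl1, whereas WT-CD replicate 1 was at 1.08 to 1.27 for Fth1.

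The ribosomal protein genes had the same lowest library, but not the same order throughout. Their summed level over 84 genes, chosen after the ferritin values were seen, was 0.627 to 0.711 of the class mean in WT-CD replicate 2, 1.15 to 1.29 in WT-CD replicate 1, 0.829 to 0.969 and 0.939 to 1.002 in the R403Q-CD libraries, and 1.04 to 1.25 and 0.955 to 1.16 in the R403Q-EMPA libraries. In myeloid-like nuclei R403Q-EMPA replicate 2 was below both R403Q-CD libraries for these genes and above both for Fth1 and Ftl1. Ireb2 did not: WT-CD replicate 2 was at 0.951 to 1.03 of its class mean. The mitochondrial share of UMIs in fibroblast-like nuclei was 2.81% and 2.21% (WT-CD), 1.89% and 1.98% (R403Q-CD) and 2.21% and 3.10% (R403Q-EMPA). Median depth was 2903 and 4200, 3777 and 4564, and 4069 and 2528.5 UMIs. The part that these library properties have in the ferritin values was not tested.

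**Figure D4:**
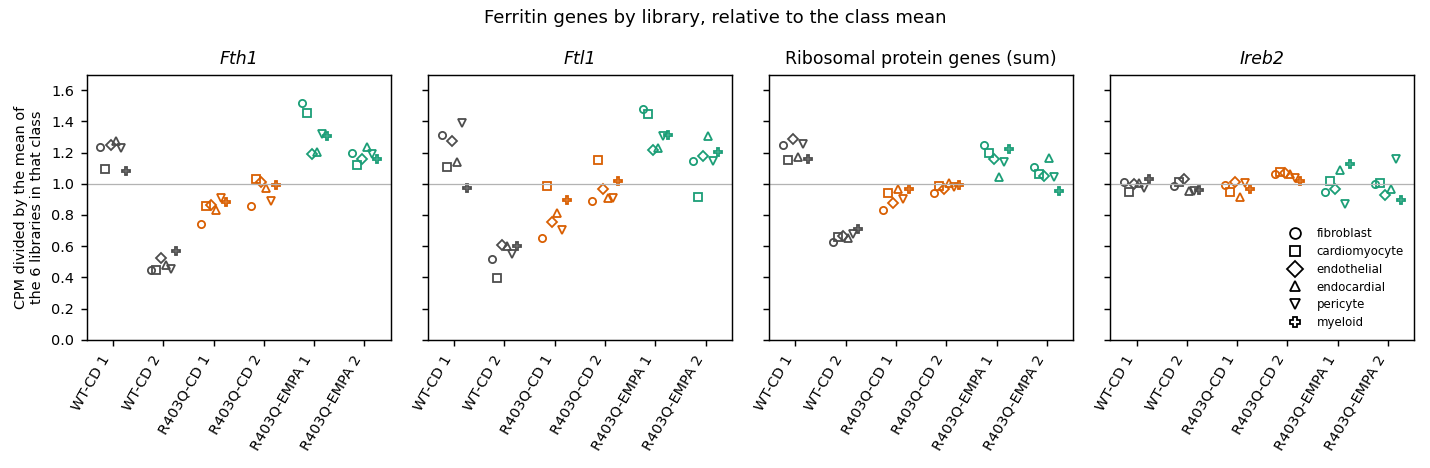
Level of Fth1, Ftl1, the summed ribosomal protein genes and Ireb2 in each library (horizontal axis), as CPM divided by the mean of the 6 libraries in that class (vertical axis), with 1 marker per tested class. WT-CD replicate 2 lies lowest for Fth1, Ftl1 and the ribosomal protein genes in all 6 classes and near 1 for Ireb2.

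Against R403Q-CD, both R403Q-EMPA libraries held more Fth1 than both R403Q-CD libraries in all 6 classes, with log2 fold changes of 0.30 to 0.72 and adjusted p-values of 0.429 to 0.801 (edgeR). The 6 classes come from the same libraries, and the share of all genes with this separation was not counted. Without WT-CD replicate 1 or 2, Fth1 in fibroblast-like nuclei was called in this comparison (adjusted p 0.0456 and 0.0466). The log2 fold changes of Ftl1 against R403Q-CD were 0.08 to 0.72, with adjusted p-values of 0.414 to 0.942 (edgeR), and in cardiomyocyte-like nuclei its libraries overlapped. Against WT-CD, Fth1 gave 0.46 to 0.70 and Ftl1 0.34 to 0.62, and all were above 0. These rested on the WT-CD libraries. Without WT-CD replicate 2 the values for Fth1 were −0.04 to 0.27 and none was called, and without WT-CD replicate 1 they were 1.03 to 1.501 and 5 of 6 classes were called. For Ftl1 they were −0.14 to 0.35 and 0.92 to 1.40, with 0 and 5 classes called. For R403Q-CD against WT-CD, Fth1 gave −0.05 to 0.32 and Ftl1 −0.22 to 0.53, and these turned with the WT-CD library too. Without WT-CD replicate 1 they were 0.65 to 0.97, with Fth1 called in pericyte-like nuclei, and 0.47 to 1.31. Without WT-CD replicate 2 they were −0.57 to −0.11 and −0.71 to 0.05, with none called.

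**Figure D5:**
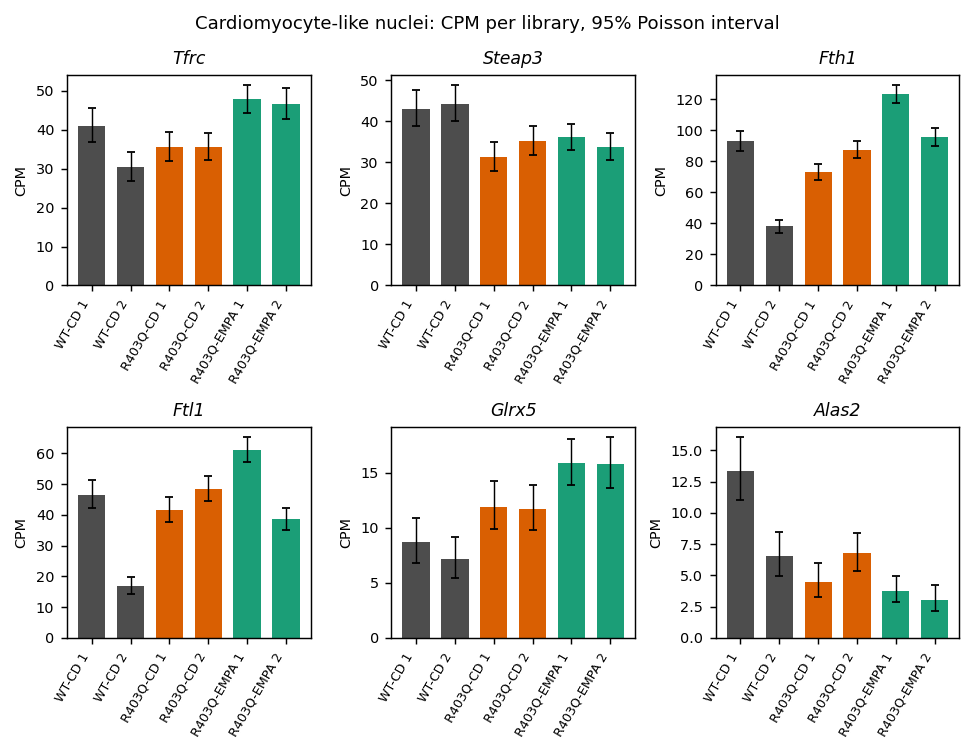
CPM of 4 iron genes and of Glrx5 and Alas2 in cardiomyocyte-like nuclei, with 1 bar per library coloured by group and 95% Poisson intervals that cover counting error only. Both R403Q-EMPA libraries are above the other 4 for Tfrc and Glrx5, and both WT-CD libraries are above the other 4 for Steap3.

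In cardiomyocyte-like nuclei the transferrin receptor Tfrc was at 41.0 and 30.5 CPM (WT-CD), 35.5 and 35.7 CPM (R403Q-CD) and 47.9 and 46.5 CPM (R403Q-EMPA). The R403Q-EMPA libraries were above all others, with a log2 difference of 0.35 against R403Q-CD (SE 0.145, adjusted p 0.356, edgeR) and of 0.34 against WT-CD (SE 0.146, adjusted p 0.235). R403Q-CD and WT-CD did not differ beyond their spread (−0.01, SE 0.147). Both R403Q-EMPA libraries also had the highest mitochondrial share of UMIs in these nuclei (1.23% and 1.33% against 0.877 to 1.13%). The part of this share in the Tfrc values was not tested.

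Steap3 in these nuclei was at 43.1 and 44.3 CPM (WT-CD), 31.3 and 35.2 CPM (R403Q-CD) and 36.1 and 33.7 CPM (R403Q-EMPA). Both groups of R403Q hearts were below WT-CD, at −0.41 on the log2 scale for R403Q-CD (SE 0.152, adjusted p 0.611) and −0.40 for R403Q-EMPA (SE 0.151, adjusted p 0.186), and they overlapped each other (0.01, SE 0.151). In fibroblast-like nuclei, its main class, it was at 380 and 297, 301 and 272, and 276 and 276 CPM, which for R403Q-EMPA against WT-CD gave −0.33 on the log2 scale (SE 0.142, adjusted p 0.340), and −0.44 to −0.20 over the alternatives. WT-CD replicate 1, the highest library, was also highest for the 8 summed fibroblast markers (15748 CPM against 10453 to 11825 in the other 5, none at 0), whose part in this was not tested. In pericyte-like nuclei it was at 28.4 and 21.2, 16.9 and 24.1, and 35.3 and 29.6 CPM, which gave 0.62 (SE 0.264, adjusted p 0.510) for R403Q-EMPA against R403Q-CD, and 0.24 to 0.90 over the alternatives. The lowest of these was with predicted doublets kept. The 8 endothelial markers summed in pericyte-like nuclei were also highest in R403Q-EMPA (335 and 180 CPM against 147 to 156), and their part in this was not tested.

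Fth1 in cardiomyocyte-like nuclei was at 93.1 and 38.1 CPM (WT-CD), 73.1 and 87.7 CPM (R403Q-CD) and 124 and 95.4 CPM (R403Q-EMPA), and Ftl1 at 46.6 and 16.8, 41.5 and 48.5, and 61.2 and 38.6. WT-CD replicate 2 was again lowest for both. Fth1 gave 0.70 (SE 0.288, adjusted p 0.219) for R403Q-EMPA against WT-CD, and 1.15 (adjusted p 0.0143) with no limit on the mitochondrial share of a nucleus. That limit removed 22.0% and 18.9% (WT-CD), 27.2% and 32.9% (R403Q-CD) and 34.4% and 39.0% (R403Q-EMPA) of barcodes that met the other minimums, and its part in the Fth1 values was not tested. Of the smaller cardiomyocyte-like cluster, in which Fth1 was higher, 41.6% of nuclei came from R403Q-EMPA replicate 1, and the part of this in the Fth1 values was not tested. Slc11a2 was at 15.3 and 16.9, 14.8 and 17.7, and 21.4 and 17.7 CPM, and its log2 fold changes lay between 0.00 and 0.21. Ireb2, at 42.0 and 44.9, 42.0 and 47.9, and 45.3 and 44.5 CPM, gave −0.06 to 0.03.

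The regulator Ireb2 was the member with the smallest differences: over the 6 classes and 3 comparisons its log2 fold changes ran from −0.16 to 0.11. Slc11a2 ran from −0.35 in pericyte-like to 0.50 in endocardial-like nuclei, with unadjusted p-values of 0.141 or more.

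The 9 members were then set beside 63 other genes of iron and haem handling in 6 lists, all found in the matrices. Of 296 pairs of gene and class tested per comparison, 0 were called for R403Q-CD against WT-CD, 0 for R403Q-EMPA against R403Q-CD and 2 for R403Q-EMPA against WT-CD, beside 10, 25 and 33 pairs at an unadjusted p under 0.05. DESeq2 called 0, 1 and 3, and its share over all genes was not set beside these. Both calls were in cardiomyocyte-like nuclei, where 2 of 51 pathway genes tested and 4.09% of all genes were called. In that comparison 52 of 90 pairs of the mitochondrial iron and iron-sulfur cluster list had a value above 0, as did 22 of 30 for storage and cytosolic handling, 21 of 34 for uptake and reduction, 17 of 32 for export and its control, 26 of 52 for haem synthesis and 26 of 58 for haem breakdown and transport. Over all genes and the 6 classes, 50.1% of values were above 0. In cardiomyocyte-like nuclei the median log2 fold change of that comparison was 0.25 for uptake and reduction (5 of 5 above 0), 0.22 for storage (3 of 5), 0.18 for the iron-sulfur list (10 of 15), 0.10 for haem synthesis (7 of 9), −0.06 for export (3 of 6) and −0.12 for haem breakdown and transport (4 of 11), beside −0.0012 over all genes tested, of which 50.0% were above 0.

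For R403Q-EMPA against R403Q-CD in the same nuclei, the medians were 0.63 for uptake and reduction (4 of 5 above 0), 0.15 for storage (4 of 5), 0.23 for the iron-sulfur list (13 of 15) and 0.16 for haem synthesis (8 of 9). They were −0.23 for export (1 of 6) and −0.21 for haem breakdown and transport (4 of 11), beside 0.0089 over all genes, of which 51.2% were above 0. The other 5 classes had other signs for some lists, with medians of −0.20 to 0.34 for uptake and reduction, −0.26 to 0.22 for export, −0.28 to 0.04 for haem synthesis, −0.06 to 0.07 for the iron-sulfur list, −0.05 to 0.05 for haem breakdown and transport and 0.08 to 0.18 for storage. Over the 6 classes 20 of 34 pairs were above 0 for uptake and reduction, 25 of 30 for storage, 53 of 90 for the iron-sulfur list, 26 of 52 for haem synthesis, 12 of 32 for export and 30 of 58 for haem breakdown and transport, beside 50.7% over all genes. For R403Q-CD against WT-CD the medians in cardiomyocyte-like nuclei were 0.16 (3 of 5), 0.02 (3 of 5), 0.06 (8 of 15), −0.08 (3 of 9), 0.02 (3 of 6) and 0.11 (6 of 11) in the order of lists just given, beside −0.014 over all genes, of which 47.8% were above 0. Over the 6 classes 19 of 34, 16 of 30, 47 of 90, 23 of 52, 21 of 32 and 24 of 58 pairs were above 0, beside 49.2% over all genes. Each pair of comparisons shares a group of libraries, and no test was run on a list.

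Glrx5, a mitochondrial glutaredoxin that passes on iron-sulfur clusters, was called higher in cardiomyocyte-like nuclei of R403Q-EMPA than of WT-CD. It was at 8.69 and 7.14 CPM (WT-CD), 11.9 and 11.7 CPM (R403Q-CD) and 15.9 and 15.8 CPM (R403Q-EMPA), so the groups did not overlap. WT-CD replicate 2 was also its lowest library in fibroblast-like (5.755 CPM), endothelial-like (7.14), endocardial-like (7.73) and pericyte-like nuclei (7.54), though not in myeloid-like nuclei. The part of this library, and of the mitochondrial share given for Tfrc, in the Glrx5 values was not tested. The log2 fold change was 0.94 (SE 0.186, adjusted p 0.0249, edgeR). The call was lost without any 1 of the R403Q-CD or R403Q-EMPA libraries (adjusted p 0.0637 to 0.130) and with only these 2 groups in the fit (0.0652), while the fold change stayed between 0.90 and 1.13 over the alternatives tried. Pcbp1, an iron chaperone that loads ferritin, was at 14.2 and 9.56, 11.4 and 12.6, and 24.5 and 17.5 CPM, with a log2 difference of 0.76 against WT-CD (SE 0.211, adjusted p 0.0800, edgeR) and of 0.75 against R403Q-CD (SE 0.207, adjusted p 0.182). WT-CD replicate 2 was lowest for Pcbp1 in every tested class but pericyte-like nuclei, and the part of this library in the Pcbp1 values was not tested.

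Alas2 was called lower in the same comparison, at 13.4 and 6.56 CPM in WT-CD and 3.78 and 3.02 in R403Q-EMPA, with 4.47 and 6.76 in R403Q-CD. The log2 fold change was −1.59 (SE 0.339, adjusted p 0.0331). The call was lost without WT-CD replicate 1 (−1.11, adjusted p 0.0890), R403Q-CD replicate 2 (0.0521) or either R403Q-EMPA library (0.133 and 0.142). Alas2 is the erythroid form of the enzyme, and in the cluster led by haemoglobin genes it was at 4428 CPM. The 7 erythroid markers, Alas2 among them, summed to 293 and 137 CPM (WT-CD), 174 and 354.5 CPM (R403Q-CD) and 228 and 118 CPM (R403Q-EMPA) cardiomyocyte-like nuclei. Slc4a1, the red cell anion exchanger, was at 0.0700 to 0.259 CPM (1 to 3 UMIs). The haemoglobin gene Hbb-bs, at 181 and 82.2, 108 and 212, and 144 and 71.8 CPM, was higher within each group in the library with more Alas2. Alas2 was also detected in the other 5 tested classes, for example at 6.37 and 3.24 CPM in WT-CD and 3.39 and 2.21 in R403Q-EMPA fibroblast-like nuclei. The part of red cell RNA in the Alas2 values was not tested.

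Among the pathway genes with the smallest p in a class, Bmp6, the growth factor that induces hepcidin, was at 1732 and 1943 CPM (WT-CD), 1992 and 1658 CPM (R403Q-CD) and 1177 and 845 CPM (R403Q-EMPA) endocardial-like nuclei. The R403Q-EMPA libraries were below the other 4, with −0.90 (SE 0.207, adjusted p 0.0554) against WT-CD and −0.88 (SE 0.207, adjusted p 0.0907) against R403Q-CD. DESeq2 called it in both comparisons. The 8 endocardial markers summed in this class were also lower in R403Q-EMPA, at 15921, 17534, 18249 and 16189 CPM in the WT-CD and R403Q-CD libraries and 10250.0 and 12988 in R403Q-EMPA, and the 8 endothelial markers were highest in R403Q-EMPA (7202 and 6948 against 5461 to 6651). No marker of either list was at 0, and their part in the Bmp6 values was not tested. Alad, of haem synthesis, was at 101 and 74.7, 83.3 and 71.5, and 62.0 and 45.7 CPM in pericyte-like nuclei, with −0.72 (SE 0.196, adjusted p 0.0972) against WT-CD. The 8 pericyte markers summed in this class were at 12309 and 11961 CPM in R403Q-EMPA against 13522 to 14822 in the other 4 libraries, and the 8 endothelial markers were higher there, as given for Steap3. None of these markers was at 0, and their part in the Alad values was not tested. For R403Q-CD against WT-CD the smallest were Heph, a copper ferroxidase that works with ferroportin, in endothelial-like nuclei (0.68, SE 0.198, adjusted p 1.00) and Bach1, a haem-sensing repressor of Hmox1, in cardiomyocyte-like nuclei (0.45, SE 0.146, adjusted p 0.484).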

How the data were processed

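Nuclei from frozen left ventricle were profiled in 6 libraries, and the authors deposited UMI counts for each as a matrix of genes by nuclei. The submitters' processing notes name Cell Ranger 8.0.1 and the build GRCm39, and the gene annotation and the counting of introns are not given in the sources used here. UMI counts were not normalized by the authors. From these, nuclei with 500 or more UMIs, 300 or more genes and at most 5% mitochondrial UMIs were used after doublets predicted by scrublet were removed. Clusters came from scanpy 1.11.5 in Python 3.11.15 (2000 variable genes, 30 principal components, 15 neighbours, Leiden resolution 1 with igraph 0.11.9). A cluster was named for the class with the most enriched markers, at least 3. Groups came from GEO's labels.

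Counts were summed per class and library and fitted over the 3 groups with edgeR 4.0.16 in R 4.3.3 (filterByExpr, TMM scaling, quasi-likelihood test, Benjamini-Hochberg adjustment over all genes of a class, 3 residual degrees of freedom). Calls were made where the adjusted p was below 0.05. The script was tested on simulated data with 200 changed genes. Alternatives were DESeq2 1.42.0, RLE scaling, no filter on low counts, only the 2 groups compared, at least 1000 UMIs, no mitochondrial limit, clusters without iron genes, doublets kept, and each library left out. The 9 members were named whatever their values, as were pathway genes that were called or had the smallest p in a class and comparison, and the 2 genes most like each member. Some items covered by this rule are not reported here. Members and lists were chosen with earlier results of these data known. UTR sequences came from GENCODE M21 on GRCm38, a different build from the counts, and no coordinates were carried between them.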

Additional observations from a re-analysis of the deposited data

Results flagged for a closer look

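Tfrc, Slc40a1, Hmox1 and Steap3 had log2 fold changes (edgeR) of opposite sign in 2 or more classes under 1 comparison, with both libraries of one group beyond both of the other in each of those classes. The difference between classes was not tested, and no single fold change passed the adjusted threshold. The share of all genes that meet this rule was not counted.

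For Tfrc, R403Q-CD against WT-CD gave 0.81 in endocardial-like and −0.49 in pericyte-like nuclei. R403Q-EMPA against R403Q-CD gave 0.35 in cardiomyocyte-like, 0.28 in endocardial-like and −0.62 in fibroblast-like nuclei. R403Q-EMPA against WT-CD gave 0.34 in cardiomyocyte-like and 1.08 in endocardial-like nuclei, and −0.58 in fibroblast-like, −0.43 in pericyte-like and −0.45 in myeloid-like nuclei. The endocardial-like and fibroblast-like values rest on 48 and 194 Tfrc UMIs over the 6 libraries. In endocardial-like nuclei the 8 cardiomyocyte markers summed to 1793 and 1150 CPM (WT-CD), 2766 and 2011 CPM (R403Q-CD) and 2200 and 2930 CPM (R403Q-EMPA). Their part in the Tfrc values was not tested.

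For Slc40a1, fibroblast-like and pericyte-like nuclei gave 0.56 and −0.51 for R403Q-EMPA against R403Q-CD and 0.74 and −0.37 against WT-CD, from 449 and 108 UMIs. For Hmox1, R403Q-EMPA against R403Q-CD gave 0.64 in fibroblast-like, 0.54 in myeloid-like and −0.59 in endothelial-like nuclei, from 198, 286 and 77 UMIs. For Steap3, R403Q-EMPA against WT-CD gave 0.37 in pericyte-like, −0.33 in fibroblast-like and −0.40 in cardiomyocyte-like nuclei.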

How the results depend on the processing

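Each group had 2 libraries, and low counts kept Slc11a1 from being tested outside myeloid-like nuclei, Hmox1 in 3 classes and Slc40a1 in endocardial-like nuclei. What limited the number of calls was not tested. No paired analysis was possible because the labels give the libraries no replicate numbers and the numbers used here follow accession order. Of 420 values of 30 fold changes under the alternatives, 380 kept direction and side of the threshold, 11 lost a call, 19 gained one and 10 changed sign, and of 108 group levels under other nuclei 98 stayed within 1 SD. The 10 that did not, among all levels, lay within 0.727 to 1.32 of the value reported. Of the 30 fold changes only those of Glrx5 and Alas2 were called in the main fit, so only they could lose a call. For the others, keeping the side of the threshold meant staying uncalled.

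For R403Q-CD against WT-CD, members called went from 0 to 1 with no mitochondrial limit (Fth1, cardiomyocyte-like nuclei), and pathway genes to 2 with no mitochondrial limit. For R403Q-EMPA against R403Q-CD, members went to 2 with no filter on low counts and 1 with only the 2 groups compared. Pathway genes there went to 7 with no filter, 1 with DESeq2 and 1 with only the 2 groups. For R403Q-EMPA against WT-CD, members went to 6 with no filter and 1 with no mitochondrial limit. Pathway genes there went from 2 to 10 with no filter, 4 with no mitochondrial limit and 0 with only the 2 groups. Counts of calls also changed in each comparison when 1 library was left out, which leaves a group with 1 library. The share of all genes called under these alternatives was not set beside these counts, so none is read as particular to iron genes.

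Signs changed for Slc40a1 in myeloid-like nuclei, which with a library left out gave −0.97 to 0.76 (R403Q-CD against WT-CD), −3.44 to 1.05 (R403Q-EMPA against R403Q-CD) and −3.84 to 0.65 (R403Q-EMPA against WT-CD), and 0.11 with DESeq2 in the second. For R403Q-EMPA against WT-CD, Fth1 gave −0.0042 to 1.10 in endothelial-like and −0.040 to 1.26 in endocardial-like nuclei, and Ftl1 gave −0.0055 to 0.92 in endothelial-like and −0.14 to 1.09 in pericyte-like nuclei, each below 0 without WT-CD replicate 2. The cause of these changes was not tested.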

Other observations

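Other pathway genes had the smallest p of their class and comparison without a call by edgeR. For R403Q-EMPA against WT-CD these included Flvcr2, a choline and haem transporter family member, in endothelial-like nuclei (log2 fold change −1.35, adjusted p 0.185), Hfe, a partner of the transferrin receptor, in myeloid-like nuclei (0.63, adjusted p 0.297) and Pcbp2, an iron chaperone, in fibroblast-like nuclei (0.36, adjusted p 0.234). For R403Q-EMPA against R403Q-CD they included Steap2, a metalloreductase, in fibroblast-like nuclei (−0.68, adjusted p 0.179) and Slc25a37, the mitochondrial iron importer mitoferrin, in myeloid-like nuclei (0.54, adjusted p 0.634).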
